A study of Mus musculus with 8 samples.

Results

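Genes of extracellular adenosine handling were followed in splenic CD8+ T cells with and without forced ATF4 expression, namely Entpd1, Nt5e, Cd38, Ada, Adora2a, Adora2b, Slc28a2, Slc28a2b and Slc29a1. They are 9 of the 55291 genes in the deposited count table. They were picked by symbol, as the enzymes that make and remove adenosine outside the cell, the receptors that sense it and the carriers that move it across the membrane. The choice was made with the genotype difference of these genes already known, so their differences are given as a description and carry no test. All 4 ATF4 overexpression libraries have the genotype label ATF4 Tg/Tg, and all 4 WT libraries have the genotype label WT. The design text names the mice instead as E8IcreATF4Tg/Tg and ATF4Tg/Tg, which reads as a transgene with a Cre recombinase and the same transgene without it. The E8I element drives Cre from a Cd8a enhancer in mature CD8+ T cells, so the term WT is used here only as a label. The sample titles name the cells naïve CD8 T cells, and all mice were naïve. The cells were enriched from spleen with magnetic beads and not by a flow sort. Age, and whether each library came from its own mouse, was not given in the sources used here.

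ATP that leaves stressed or dying cells is cut to AMP by CD39, the product of Entpd1, and AMP is cut to adenosine by CD73, the product of Nt5e. CD38 opens a parallel route by splitting NAD outside the cell. Adenosine acts on the A2a receptor of T cells, which raises cyclic AMP and dampens their activation, and it is removed by adenosine deaminase or taken into the cell by nucleoside carriers. This pathway is known for its part in the suppression of T cells in tumors.

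Total estimated counts ran from 93478686 to 125974143 per library, and 17448 to 20338 genes had a count. Atf4 was at 328 ± 125 CPM in ATF4 overexpression and 231 ± 76.4 CPM in WT (SD, n = 4 each; CPM is the usual per-library scaling of counts, with edgeR's TMM factors), a difference that did not pass the test of edgeR (log2 fold change 0.51, adjusted p = 0.37). It passed with the replicate number as a block (0.48, adjusted p = 2.2e-04), with the library set as a block (0.48, adjusted p = 6.7e-05), within replicates 1 and 2 (0.59, adjusted p = 0.0038) and within replicates 3 and 4 (0.41, adjusted p = 0.0046). It was -0.11 (adjusted p = 0.86) without the 4 libraries with few low counts described next. This leaves ATF4 overexpression replicates 3 and 4 and WT replicates 2 and 3, so only WT keeps a library of replicates 1 and 2. The genotype difference in that subset is thus partly confounded with the library set. In the model with genotype, Atf4 was lower in replicates 3 and 4 by a log2 fold change of -0.92 ± 0.05 (SE). Asns, a well-known target of ATF4, was at 166 ± 18.2 CPM in ATF4 overexpression and 0.307 ± 0.104 CPM in WT (log2 fold change 9.10, edgeR adjusted p = 1.1e-08). Replicates 1 and 2 of both groups stood apart from replicates 3 and 4, whose column names are also written in another style. What separates these library sets is not given in the sources used here. Another 4 libraries, namely ATF4 overexpression replicates 1 and 2 and WT replicates 1 and 4, held few low counts, with 1518 to 2082 genes at 1 to 9 counts against 2854 to 3286 in the others.

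The labelled cell type was checked first. Of 7 genes of CD8 T cells, 5 were lower and 0 higher in ATF4 overexpression (edgeR, adjusted p below 0.05), with summed levels of 4873 to 5074 CPM in ATF4 overexpression and 6220 to 6484 CPM in WT. Marker lists of other cells that an enriched spleen sample can hold were higher in part. In ATF4 overexpression 7 of 10 B cell genes, 7 of 12 myeloid genes, 1 of 6 dendritic cell genes, 2 of 5 NK cell genes, 4 of 4 gamma-delta T cell genes, 3 of 4 CD4 and regulatory T cell genes, 7 of 10 erythroid genes and 3 of 5 platelet genes were higher, and 0 were lower, against 9.16% higher and 4.89% lower among all tested genes. The replicate block called 8 B cell genes, 9 myeloid genes, 2 dendritic cell genes, 2 CD4 and regulatory T cell genes, 6 erythroid genes and 0 NK cell genes higher, and all 7 CD8 T cell genes were lower. Without the 4 libraries with few low counts 1 B cell gene, 1 CD4 and regulatory T cell gene, 2 platelet genes and 0 NK or dendritic cell genes were higher, and 0 CD8 T cell genes were lower, while 4 gamma-delta T cell genes, 6 myeloid genes and 7 erythroid genes were higher. None of these 56 markers was at 0 in all 8 libraries, and Gp9, a platelet gene, was at 0 in all WT libraries. Summed levels of the B cell list were 992, 952, 618 and 655 CPM in ATF4 overexpression, against 742, 788, 614 and 642 CPM in WT. The groups thus overlapped across the library sets and within replicates 3 and 4. Within replicates 1 and 2 every ATF4 overexpression library was above every WT library. Those of the erythroid list ran from 81.7 to 280.0 CPM in ATF4 overexpression and from 11.9 to 15.9 CPM in WT. The part of these cells in the results that follow was not tested. The marker lists, too, were chosen with earlier results of these data known.

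**Figure D1:**
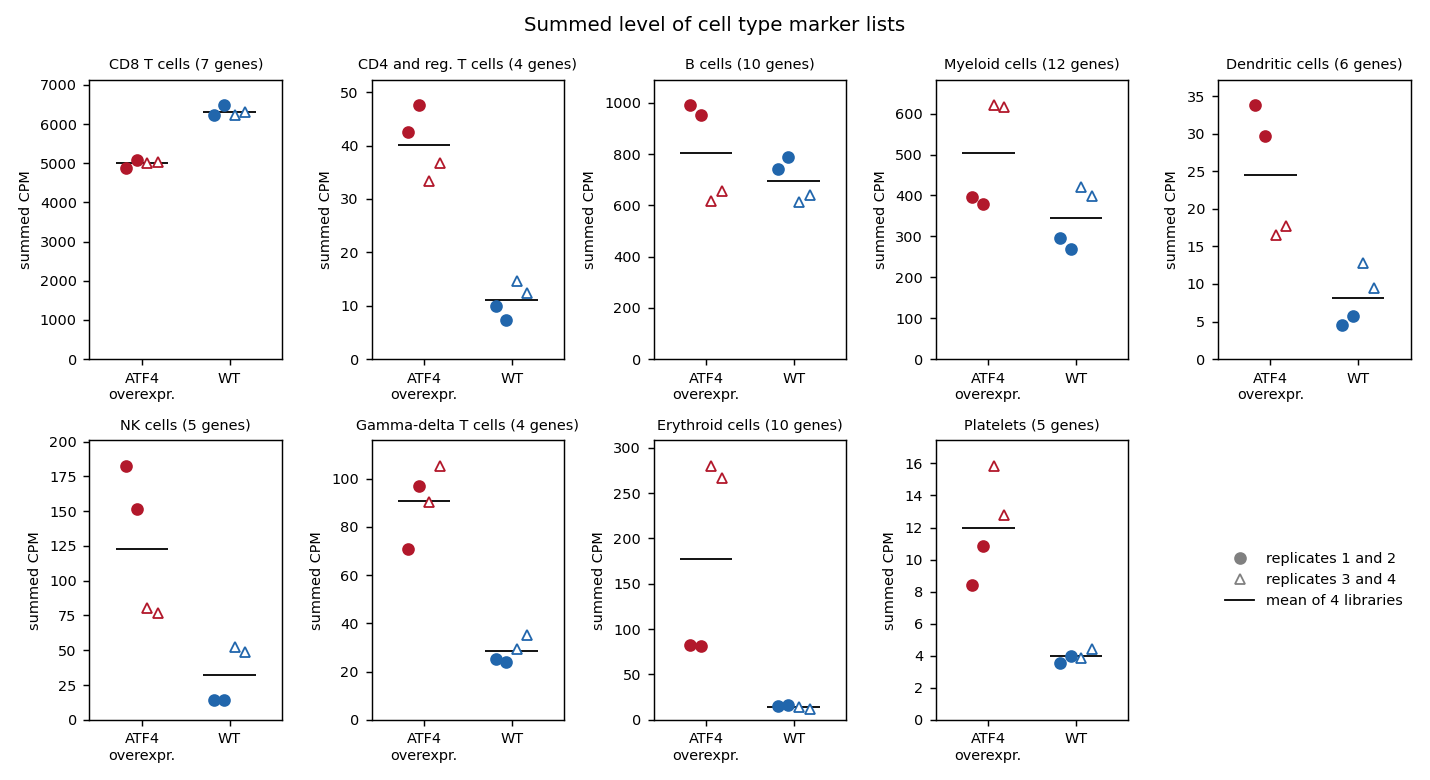
Summed CPM of 9 cell type marker lists, 1 panel per list, with 1 point per library (filled circles, replicates 1 and 2; open triangles, replicates 3 and 4) and the mean of the 4 libraries as a line. The CD8 T cell list sat at 4873 to 5074 CPM in ATF4 overexpression and 6220 to 6484 CPM in WT. The lists of B cells and myeloid cells overlapped between the groups across the library sets. Within each library set the myeloid list was higher in ATF4 overexpression, while the B cell list overlapped within replicates 3 and 4. Sums weigh abundant genes most, and the median log2 fold change was 2.39 for the 12 myeloid genes and 2.34 for the 10 B cell genes.

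Of the 9 genes, 8 had enough counts to be fitted, and Adora2b did not. The fit across all genes called 5 of these 8 between the genotypes, where it called 14.1% of all 16630 tested genes. It called 3 higher in ATF4 overexpression (9.16% of all tested genes) and 2 lower (4.89%), and nothing is read from these counts because the genes were chosen with them known. The count was 4 without ATF4 overexpression replicate 3 or 4 or WT replicate 1, 2 or 3, each time because Slc28a2 was no longer called. Libraries of the 2 groups did not overlap for 4 of the 8 genes, against 22% of all tested genes. The median log2 fold change of the 8 was 0.28, against -0.02 over all tested genes.

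**Figure D2:**
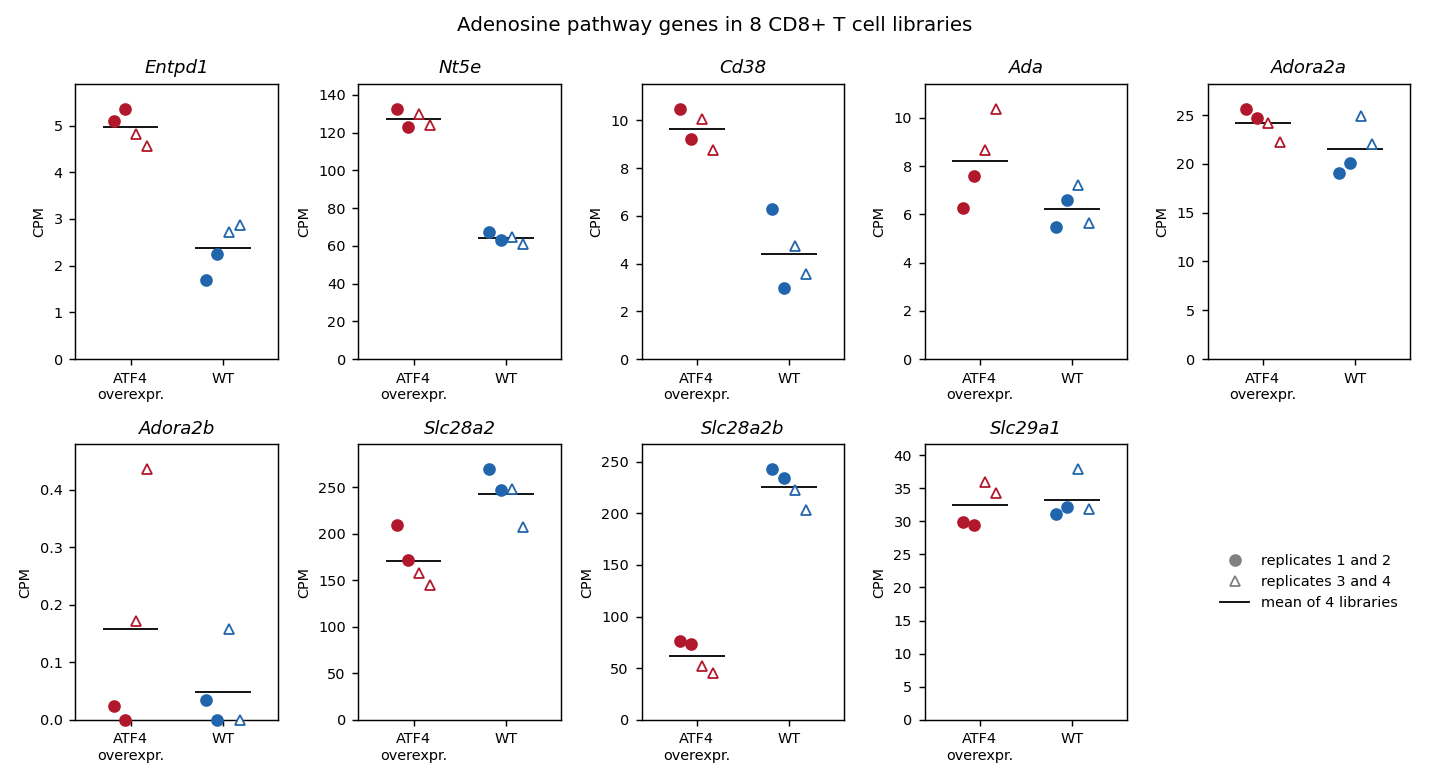
CPM of the 9 genes in each library, 1 panel per gene, each axis starting at 0, with the mean of the 4 libraries as a line. Entpd1, Nt5e and Cd38 lay higher in every ATF4 overexpression library than in any WT library, Slc28a2b lay lower, and the groups overlapped for Ada, Adora2a, Adora2b, Slc28a2 and Slc29a1.

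All 3 ectoenzymes were about doubled in ATF4 overexpression. Nt5e, which encodes the AMP-cleaving ectoenzyme CD73 and lies on chromosome 9 (88327197 to 88372092, plus strand, GRCm38), was at 133, 123, 129.9 and 124 CPM in ATF4 overexpression replicates 1 to 4, against 67.3, 63.0, 64.6 and 60.9 CPM in WT replicates 1 to 4. The lowest ATF4 overexpression library thus held far more Nt5e than the highest WT library. Its log2 fold change was 0.99 ± 0.06 (SE), a 1.99-fold difference, and it was 1.01 within replicates 1 and 2 and 1.02 within replicates 3 and 4. The coefficient of variation was 3.66% among ATF4 overexpression libraries and 4.28% among WT libraries, the smallest of the 9 genes in both groups. Between 5960 and 16562 counts per library stood behind these values.

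Entpd1, which encodes the ATP- and ADP-cleaving ectoenzyme CD39 (chromosome 19, 40612366 to 40741602, plus strand), was at 5.10, 5.36, 4.81 and 4.56 CPM in ATF4 overexpression, against 1.68, 2.25, 2.73 and 2.86 CPM in WT. The groups did not overlap, and the WT libraries of replicates 1 and 2 were the lowest of all. The log2 fold change was 1.06 ± 0.22 (SE). It was 1.44 within replicates 1 and 2 and 0.75 within replicates 3 and 4, a gap of -0.66 ± 0.33 between the sets that did not pass the interaction test (edgeR, adjusted p = 0.45). Without the 4 libraries with few low counts the log2 fold change was 0.91, and Entpd1 was not called (edgeR adjusted p = 0.098). CD39 is also known on B cells, myeloid cells and regulatory T cells of the mouse spleen. Foxp3, the defining gene of regulatory T cells, was at 2.19 ± 0.43 CPM in ATF4 overexpression and 1.38 ± 0.59 CPM in WT (SD, n = 4 each; edgeR adjusted p = 0.28). It was not called, while 3 of 4 CD4 and regulatory T cell genes were called higher. Csf1r of macrophages was at 20.2 CPM in ATF4 overexpression and 3.03 CPM in WT. The 12 myeloid genes together were at 380 to 621 CPM in ATF4 overexpression and 268 to 421 CPM in WT. The 10 B cell genes together were at 618 to 992 and 614 to 788 CPM. Such sums weigh abundant genes most. The median log2 fold change was 2.39 over the 12 myeloid genes and 2.34 over the 10 B cell genes, against -0.02 over all tested genes. In bulk RNA, a difference in the number of cells of a type and one in RNA per cell cannot be told apart.

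Cd38, an ectoenzyme that consumes NAD (chromosome 5, 43868553 to 43912375, plus strand), was at 10.5, 9.23, 10.1 and 8.74 CPM in ATF4 overexpression, against 6.28, 2.99, 4.74 and 3.58 CPM in WT. No WT library reached the ATF4 overexpression libraries, although WT replicate 1 lay well above the other WT libraries. The log2 fold change was 1.13 ± 0.23 (SE), with 1.12 within replicates 1 and 2 and 1.18 within replicates 3 and 4. It was 1.28 without the 4 libraries with few low counts. The fit did not call Cd38 there or within replicates 1 and 2 (edgeR adjusted p = 0.052 and 0.078). Among WT libraries its coefficient of variation was 33.0%, the widest of the 8 fitted genes, and among ATF4 overexpression libraries it was 8.20%.

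Ada, the deaminase that turns adenosine into inosine (chromosome 2, 163726584 to 163750239, minus strand), was at 6.24, 7.58, 8.66 and 10.4 CPM in ATF4 overexpression, against 5.46, 6.60, 7.21 and 5.64 CPM in WT. The groups overlapped, with ATF4 overexpression replicate 1 within the WT range and the other 3 above it, and the log2 fold change was 0.40 ± 0.19 (SE). It was 0.23 within replicates 1 and 2 and 0.57 within replicates 3 and 4. Dpp4, which encodes a surface peptidase, was at 229.6 ± 5.93 CPM in ATF4 overexpression and 230.1 ± 27.3 CPM in WT (SD, n = 4 each).

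The receptors differed in level far more than with genotype. Adora2a, which encodes the A2a receptor (chromosome 10, 75316877 to 75334784, plus strand), was at 25.7, 24.7, 24.2 and 22.3 CPM in ATF4 overexpression, against 19.0, 20.1, 24.9 and 22.1 CPM in WT. WT replicate 3 lay within the range of the ATF4 overexpression libraries, and the log2 fold change was 0.17 ± 0.10 (SE). It was 0.39 within replicates 1 and 2 and -0.01 within replicates 3 and 4, and the gap between the sets did not pass the interaction test (-0.38 ± 0.15, edgeR adjusted p = 0.32). Adora2b, which encodes the A2b receptor of lower affinity for adenosine (chromosome 11, 62248984 to 62266453, plus strand), had 3, 0, 21 and 52 counts in ATF4 overexpression, against 3, 0, 19 and 0 counts in WT. Most of these counts came from replicates 3 and 4. A count of 0 allows up to 0.0289 CPM in ATF4 overexpression replicate 2 and up to 0.0277 and 0.0238 CPM in WT replicates 2 and 4, for counting error alone. Among the remaining receptors Adora1 was at 0 counts in all 8 libraries, and Adora3 was at 0.156 ± 0.182 CPM in ATF4 overexpression and 0.0472 ± 0.0373 CPM in WT (SD, n = 4 each), below the filter.

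The largest difference among the 9 genes was in Slc28a2b. It and its neighbour Slc28a2 encode concentrative nucleoside carriers, which use the sodium gradient to bring purine nucleosides such as adenosine into the cell. This role is established for Slc28a2 (CNT2), and for Slc28a2b it is inferred here from the shared sequence. Slc28a2 lies on chromosome 2 (122426477 to 122461137, plus strand, GRCm38), and Slc28a2b, called Gm14085 in GENCODE M21, lies 23803 bases downstream (122484941 to 122528040, plus strand). Their coding sequences, each of 1980 bases, were 94.8% identical over 1979 aligned bases, with a longest identical stretch of 192 bases. Of all 50-base words of their annotated transcripts, 35.4% of those of Slc28a2 also occurred in Slc28a2b and 30.3% of those of Slc28a2b also occurred in Slc28a2, so a read of 50 bases often cannot tell them apart, while the rest can. The sequences below, from coding base 424 to 483 of each gene on the plus strand, are the 60-base window where they differ most, with the 21 differing bases in capitals.
Slc28a2: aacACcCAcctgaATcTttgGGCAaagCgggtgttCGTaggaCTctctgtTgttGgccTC
Slc28a2b: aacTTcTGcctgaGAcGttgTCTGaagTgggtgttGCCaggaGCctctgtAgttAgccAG

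Slc28a2b was at 75.8, 73.0, 51.9 and 45.7 CPM in ATF4 overexpression, against 243, 234, 222 and 203 CPM in WT. Every ATF4 overexpression library lay far below every WT library, and within each group replicates 1 and 2 were above replicates 3 and 4. The log2 fold change was -1.87 ± 0.16 (SE), which is 0.273 times the WT level. It was -1.65 within replicates 1 and 2 and -2.12 within replicates 3 and 4, a gap of -0.45 ± 0.11 that did not pass the interaction test (edgeR, adjusted p = 0.12). Slc28a2 was at 209, 171, 157 and 145 CPM in ATF4 overexpression, against 269, 247, 248 and 207 CPM in WT. The highest ATF4 overexpression library was just above the lowest WT library, and the log2 fold change was -0.51 ± 0.12 (SE), with -0.41 within replicates 1 and 2 and -0.59 within replicates 3 and 4. Slc28a2 was not called within replicates 1 and 2 alone (edgeR adjusted p = 0.052).

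The ratio of the pair within a library also differed, and no scaling of whole libraries can move it. Slc28a2b took 26.6%, 29.9%, 24.8% and 23.9% of the counts of both genes in ATF4 overexpression, against 47.4%, 48.6%, 47.2% and 49.5% in WT. The spread of this share was 2.63 percentage points among ATF4 overexpression libraries and 1.07 among WT libraries (SD, n = 4 each). Summed, the pair was at 285, 244, 209 and 191 CPM in ATF4 overexpression, against 512, 481, 471 and 409.8 CPM in WT, with no overlap and a log2 fold change of -1.01 ± 0.13 (SE). The sum does not depend on how the counting model divides reads between these genes, whereas the ratio does.

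**Figure D3:**
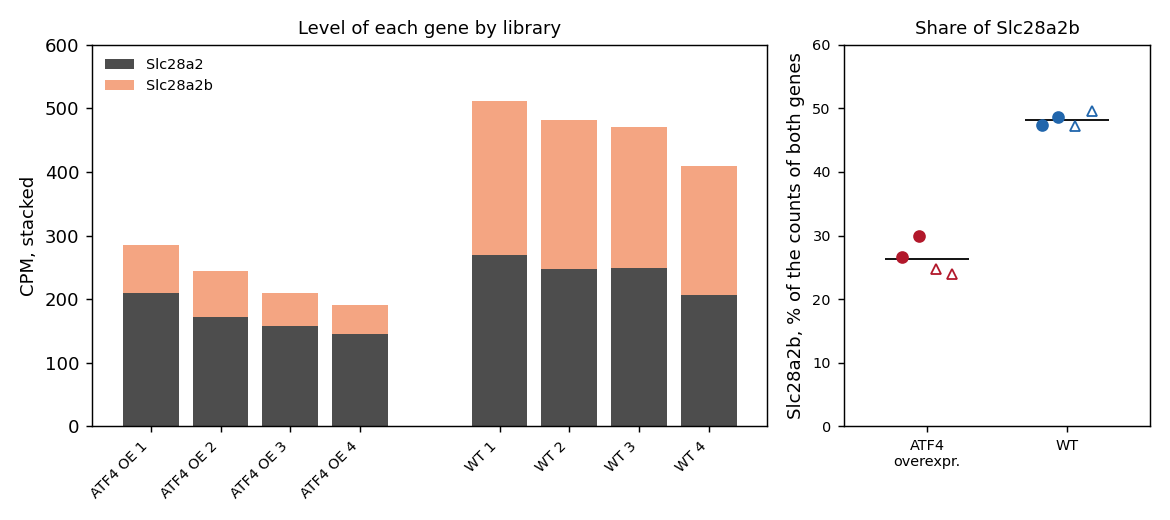
Left, CPM of Slc28a2 (dark) and Slc28a2b (light) stacked by library, with the 4 ATF4 overexpression libraries before the 4 WT libraries. Right, the share of Slc28a2b in the counts of both genes, which sat between 23.9% and 29.9% in ATF4 overexpression and between 47.2% and 49.5% in WT.

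The stretches upstream of these carriers are printed because neighbours alike in coding sequence differed unequally between the genotypes. They are the 250 bases before the RefSeq start of each gene (GRCm38.p6, plus strand, chr2:122426185-122426434 for Slc28a2 and chr2:122484691-122484940 for Slc28a2b). No exact run longer than 8 bases was shared on either strand. The length of the longest run alone does not show whether the stretches are related. Their part in the genotype difference was not tested.
Slc28a2: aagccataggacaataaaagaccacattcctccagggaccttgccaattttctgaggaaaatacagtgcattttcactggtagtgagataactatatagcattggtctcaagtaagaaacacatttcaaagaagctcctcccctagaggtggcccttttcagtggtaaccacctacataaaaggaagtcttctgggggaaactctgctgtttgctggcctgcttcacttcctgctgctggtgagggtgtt
Slc28a2b: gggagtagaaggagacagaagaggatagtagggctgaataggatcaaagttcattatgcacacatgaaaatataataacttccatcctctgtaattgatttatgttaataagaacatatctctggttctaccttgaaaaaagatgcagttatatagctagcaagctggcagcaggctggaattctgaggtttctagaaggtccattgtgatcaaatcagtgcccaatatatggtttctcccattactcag

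Promoter windows of 8 of the 9 genes were in the RefSeq table, 16 windows in all, each from 250 bases before to 50 after a start. The core of the composite element bound by ATF4 with C/EBP proteins, TGATGNAA on either strand, was in 0 of the 16 windows and in 3.97% of 32851 windows of all genes. The full cyclic AMP response element, TGACGTCA, was in 0 of the 16 and in 1.79% of all. These letters are absent from these windows only, and nothing follows for binding elsewhere. At shares this low, 0 of 16 windows does not set these genes apart, and Slc29a1 had more of the windows than any other gene. The windows of Nt5e (88327359 to 88327658) and Cd38 (43868559 to 43868858) lie after the GENCODE starts given above. Bases before those starts were not searched.

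Slc29a1, the equilibrative carrier ENT1 that lets nucleosides pass both ways along their gradient (chromosome 17, 45585200 to 45599606, minus strand), was at 29.9, 29.4, 35.9 and 34.3 CPM in ATF4 overexpression, against 31.1, 32.1, 37.8 and 31.8 CPM in WT. The groups overlapped throughout, and the log2 fold change was -0.04 ± 0.10 (SE). Of the other nucleoside carriers, Slc29a3, a carrier of lysosomal membranes, was at 38.1 ± 3.34 CPM in ATF4 overexpression and 34.5 ± 0.56 CPM in WT, and Slc29a2 at 2.81 ± 0.24 and 3.20 ± 0.69 CPM (SD, n = 4 each). Slc28a3 was at 0 counts in all libraries. None of the 3 tested carriers outside the 9 genes was called by edgeR, DESeq2 or limma-voom, and 0 had an unadjusted p below 0.05 in edgeR.

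Levels of different genes were compared per kilobase of annotated exon. In WT, Slc28a2 (60.5 ± 6.47 CPM per kb) and Slc28a2b (60.3 ± 4.58) led and did not differ beyond their spread, followed by Nt5e (16.0 ± 0.68), Slc29a1 (12.5 ± 1.17), Adora2a (8.30 ± 0.99), Ada (3.69 ± 0.49), Cd38 (1.35 ± 0.44), Entpd1 (0.548 ± 0.123) and Adora2b (0.0261 ± 0.0408; SD, n = 4 each). In ATF4 overexpression the order was Slc28a2 (42.5 ± 6.89 CPM per kb), Nt5e (31.9 ± 1.17), Slc28a2b (16.5 ± 4.03), Slc29a1 (12.2 ± 1.21), Adora2a (9.33 ± 0.55), Ada (4.87 ± 1.04), Cd38 (2.94 ± 0.24), Entpd1 (1.14 ± 0.08) and Adora2b (0.0855 ± 0.108). Slc28a2b thus stood below Nt5e in ATF4 overexpression and above it in WT. In ATF4 overexpression the libraries of Slc28a2b and Slc29a1 overlapped, so this pair of neighbours has no clear order there.

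**Figure D4:**
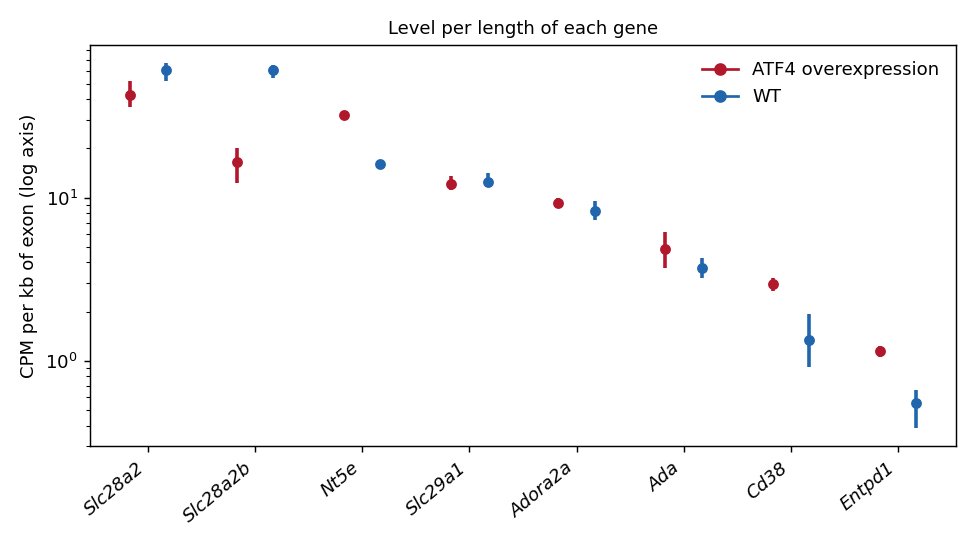
Level per kilobase of exon on a log axis for 8 genes in ATF4 overexpression (left of each pair) and WT (right), with the mean as a point and the range of 4 libraries as a line. Adora2b is left out because some libraries had 0 counts. Slc28a2b stood at 16.5 CPM per kb in ATF4 overexpression and 60.3 in WT, and Nt5e at 31.9 and 16.0.

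Differences between the library sets were independent of the choice of genes and were tested in a model with genotype. Of the 8 fitted genes, 2 passed (edgeR, adjusted p below 0.05), against 23.5% of all tested genes. Slc28a2b was lower in replicates 3 and 4 by a log2 fold change of -0.38 ± 0.09 (adjusted p = 0.010) and Slc28a2 by -0.26 ± 0.08 (adjusted p = 0.040). For Nt5e the set difference was -0.03 ± 0.05 (SE; adjusted p = 0.71). The interaction of genotype and library set called 0 of the 8 at an adjusted p below 0.05 in edgeR, against 0.998% of all tested genes at the same threshold. At an unadjusted p below 0.05 there were 2 of the 8, Adora2a and Slc28a2b, and no other tool was run for it.

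The genes closest in profile were found by the root mean square difference of log2 levels, each centred on its own mean, over 8 libraries and 8406 genes. Nt5e lay closest to Tmem154 (0.088), to Eif2s2, a subunit of the initiation factor eIF2 (0.089), and to Adcy6, an adenylyl cyclase (0.11). Their log2 fold changes between the genotypes were 0.91, 1.04 and 1.15, against 0.99 for Nt5e. The closest gene to Slc28a2b was Slc6a19, a carrier of neutral amino acids (0.18), ahead of Dapl1, a gene of resting T cells (0.30), and Xlr3b (0.32). Their log2 fold changes were -1.72, -1.76 and -1.79, against -1.87 for Slc28a2b. Slc6a19 was at 21.1 CPM in ATF4 overexpression and 69.6 CPM in WT. For Slc28a2 they were Dse (0.060), Atp10d (0.073) and Sgk1 (0.073), for Adora2a H2-M3 (0.050), Cerk (0.062) and Trim25 (0.064), and for Slc29a1 Ddx49 (0.035), Srp14 (0.040) and Akr1a1 (0.044). Those of Slc28a2b were the least alike, and those of Slc29a1 the most alike, of these 5 genes. Shared regulation was not tested.

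The wider purine pathway was read from 8 lists with 84 further genes in the table. The lists were drawn up by function, but with earlier results of these data known. Their counts are therefore given as a description. Of 71 tested, 6 were higher and 9 lower in ATF4 overexpression, 21.1% in all against 14.1% of all tested genes. Among all tested genes 9.16% were higher and 4.89% lower, and each list count below stands against these shares. With the replicate number as a block 11 of the 71 were higher and 13 lower, against 13.7% and 13.5% of all tested genes (27.2% in all). Their median log2 fold change was 0.06, against -0.02 over all tested genes.

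In the list of surface nucleotide enzymes and nucleotide release, which also holds the channel gene Panx1, 1 of 7 tested genes rose and 2 fell. Enpp1, which cuts ATP directly to AMP, rose to 17.02 ± 2.54 CPM in ATF4 overexpression, against 10.3 ± 0.95 CPM in WT (SD, n = 4 each; log2 fold change 0.72 ± 0.14, edgeR adjusted p = 0.0062). Art2b, a surface enzyme that attaches ADP-ribose from NAD to proteins, fell to 63.2, 74.6, 95.4 and 101 CPM in ATF4 overexpression, against 131, 129, 148 and 148 CPM in WT (log2 fold change -0.74 ± 0.14, adjusted p = 0.0064). Acpp, a phosphatase that can also make adenosine from AMP, fell to 24.3 ± 3.13 CPM in ATF4 overexpression, against 34.6 ± 1.85 CPM in WT (-0.51 ± 0.10, adjusted p = 0.0084). Panx1, a channel that releases ATP, was at 56.4 ± 2.25 CPM in ATF4 overexpression and 52.6 ± 8.67 CPM in WT. Without the 4 libraries with few low counts the call of Enpp1 was lost (0.50, adjusted p = 0.11), and within replicates 1 and 2 that of Acpp (-0.33, adjusted p = 0.12).

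Relatives of CD39 that sit in the endoplasmic reticulum and Golgi were lower in 3 of 5 and higher in 0, against 4.89% and 9.16% of all tested genes. Entpd5 fell to 100.3 ± 4.56 CPM in ATF4 overexpression, against 124 ± 5.19 CPM in WT (log2 fold change -0.31 ± 0.06, edgeR adjusted p = 0.010). Entpd6 fell by 0.38 ± 0.09 and Entpd4 by 0.32 ± 0.08 on the log2 scale (adjusted p = 0.020 and 0.023), and the near-copy Entpd4b, with which reads of Entpd4 may be shared, was at 33.3 ± 6.38 CPM in ATF4 overexpression and 40.5 ± 4.30 CPM in WT. The call of Entpd4 was lost without ATF4 overexpression replicate 3 or 4 or WT replicate 1 or 2 (adjusted p = 0.069, 0.066, 0.056 and 0.063), and that of Entpd6 without ATF4 overexpression replicate 4 or WT replicate 2 (0.063 and 0.053). Without the 4 libraries with few low counts none of these 3 calls held (adjusted p = 0.093 for Entpd5, 0.077 for Entpd6 and 0.13 for Entpd4). Within replicates 1 and 2 alone Entpd5 was at -0.20 (adjusted p = 0.20) and Entpd4 at -0.30 (adjusted p = 0.093), and within replicates 3 and 4 alone Entpd6 was at -0.29 (adjusted p = 0.050).

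Of 12 tested genes listed as P2 nucleotide receptors, 3 were higher and 0 lower, against 9.16% and 4.89% of all tested genes. The replicate block called 5 higher, against 13.7% of all tested genes. The median log2 fold change of the 12 was 1.68, against -0.02 over all tested genes. P2rx1, P2rx3, P2rx5, P2ry2, P2ry6 and P2ry12 had a mean below 1 CPM in both groups and were not called by the unblocked fit. P2rx4 was at 20.4 ± 1.67 CPM in ATF4 overexpression and 19.9 ± 2.97 CPM in WT (SD, n = 4 each). P2rx7, the ATP-gated channel through which extracellular ATP and NAD act on T cells, was at 17.5, 24.3, 38.2 and 39.7 CPM in ATF4 overexpression, against 10.9, 14.6, 12.2 and 15.1 CPM in WT. It rose by 1.18 ± 0.25 on the log2 scale (edgeR adjusted p = 0.011), with 0.75 within replicates 1 and 2 (adjusted p = 0.065) and 1.52 within replicates 3 and 4. P2ry1, a receptor for ADP known from platelets, was at 1.59, 1.23, 5.81 and 5.80 CPM in ATF4 overexpression, against 0.339, 0.149, 0.550 and 0.321 CPM in WT (log2 fold change 3.40 ± 0.63, adjusted p = 0.0057; 2.56 within replicates 1 and 2, adjusted p = 0.060; 3.19 with limma-voom, adjusted p = 0.081). Summed platelet markers were at 8.43, 10.8, 15.8 and 12.8 CPM and erythroid markers at 82.1, 81.7, 280.0 and 266 CPM in the same ATF4 overexpression libraries, and their part in the P2ry1 level was not tested. P2ry14, a receptor for UDP-glucose, rose by 2.50 ± 0.45 (adjusted p = 0.0052) to 2.08 ± 0.42 CPM in ATF4 overexpression, against 0.366 ± 0.180 CPM in WT. The most abundant of the list was P2ry10, which is there for its symbol and is not established as a nucleotide receptor. It was at 125.9 ± 32.6 CPM in ATF4 overexpression and 113 ± 19.8 CPM in WT.

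In the list of adenosine and nucleotide turnover inside the cell, 1 of 21 tested genes was lower and 0 were higher. The replicate block gave 2 higher and 2 lower. The 21 include Dpp4, whose product is a surface peptidase. Aprt, which salvages adenine to AMP, fell to 38.8 ± 1.36 CPM in ATF4 overexpression, against 52.9 ± 5.01 CPM in WT (log2 fold change -0.45 ± 0.08, edgeR adjusted p = 0.0054; -0.49, adjusted p = 0.075, without the 4 libraries with few low counts). Adenosine kinase, Adk, was at 18.7, 15.7, 34.2 and 30.2 CPM in ATF4 overexpression, against 16.6, 18.2, 23.2 and 22.7 CPM in WT, so its libraries parted by set and overlapped between genotypes. Pnp, which splits inosine, was at 26.3 ± 8.51 CPM in ATF4 overexpression and 16.9 ± 2.89 CPM in WT (adjusted p = 0.084; 0.011 with the replicate block).

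Of 10 genes that make or use NAD, the substrate of CD38, 1 rose and 2 fell. Nadk2, the mitochondrial NAD kinase, was at 20.4, 23.6, 45.3 and 40.9 CPM in ATF4 overexpression, against 16.5, 17.7, 14.9 and 14.8 CPM in WT (log2 fold change 1.03 ± 0.24, edgeR adjusted p = 0.019; 0.95, adjusted p = 0.064 with the replicate block; 0.40, adjusted p = 0.12 within replicates 1 and 2; adjusted p = 0.053 without ATF4 overexpression replicate 4 and 0.055 without WT replicate 4). Nmnat2, an NAD-making enzyme, fell to 5.14 ± 1.44 CPM in ATF4 overexpression, against 11.3 ± 3.28 CPM in WT (-1.14 ± 0.27, adjusted p = 0.019; 0.055 without WT replicate 3 and 0.055 without WT replicate 4; 0.077 without the 4 libraries with few low counts). Sarm1, an NAD-cleaving enzyme inside the cell, fell to 0.675 ± 0.177 CPM in ATF4 overexpression, against 1.60 ± 0.38 CPM in WT (-1.24 ± 0.34, adjusted p = 0.039), and its call was lost without ATF4 overexpression replicate 1, 2 or 3 or WT replicate 1, 2 or 3 (adjusted p from 0.062 to 0.11). The log2 fold change of Sarm1 was -1.66 within replicates 1 and 2 (adjusted p = 0.086) and -0.82 within replicates 3 and 4 (adjusted p = 0.20), and its call was also lost when low counts were kept (adjusted p = 0.085) or when the 4 libraries with few low counts were omitted (adjusted p = 0.14).

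De novo purine synthesis was called in 2 of 13 genes. Adssl1, an isozyme of adenylosuccinate synthase, rose to 3.10 ± 1.24 CPM in ATF4 overexpression, against 0.932 ± 0.225 CPM in WT (log2 fold change 1.73 ± 0.36, edgeR adjusted p = 0.0097; 1.48, adjusted p = 0.078 within replicates 1 and 2). Impdh1, a step toward GMP, fell to 106 ± 10.4 CPM in ATF4 overexpression, against 137 ± 8.74 CPM in WT (-0.38 ± 0.08, adjusted p = 0.015), and its adjusted p was 0.061, 0.050 and 0.051 without ATF4 overexpression replicate 3, ATF4 overexpression replicate 4 and WT replicate 3. Within replicates 1 and 2 it was at -0.27 (adjusted p = 0.17). The list median was -0.06, and the replicate block called 2 higher and 3 lower.

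**Figure D5:**
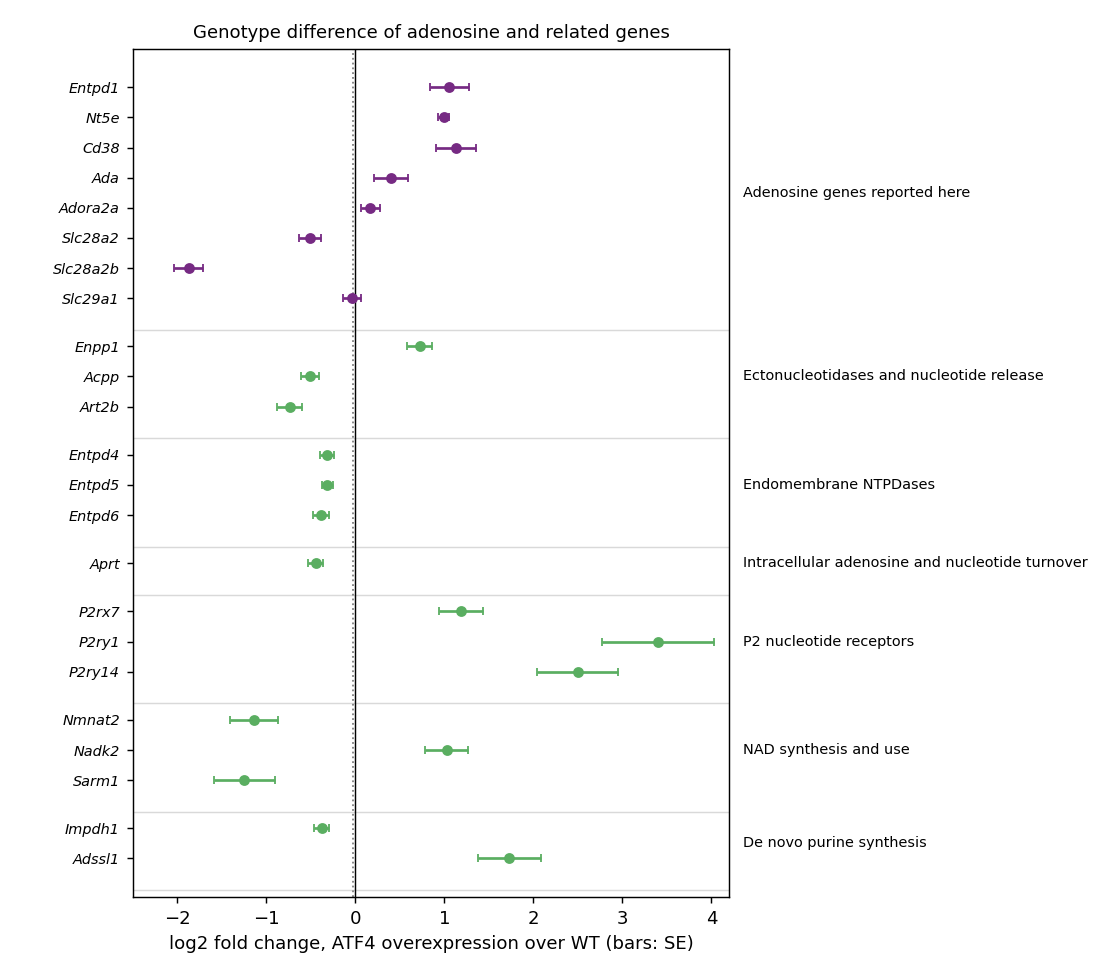
Log2 fold change of ATF4 overexpression over WT with its SE for the 8 fitted genes (top) and for the called genes named from 6 further lists. The dotted line is the median of all tested genes. Entpd1, Nt5e and Cd38 lay near 1, Slc28a2b at -1.87, and the largest value of the other lists was P2ry1 at 3.40.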

How the data were processed

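Messenger RNA of splenic CD8+ T cells was sequenced in 4 ATF4 overexpression and 4 WT libraries. Gene-level values in the authors' file are estimated counts by symbol, deposited unscaled, and the submitters' processing notes name Salmon and GRCm38.p6. The annotation release, strand setting and trimming were not given in the sources used here. Counts were rounded to whole numbers. In R 4.3.3, edgeR 4.0.16 (TMM, filterByExpr, robust quasi-likelihood fit on genotype, Benjamini-Hochberg adjustment, calls at an adjusted p below 0.05) tested 16630 genes. SEs were derived from the F statistic. The steps were tested on simulated data, in which the genotype comparison held no library set difference. These data hold one, so the simulation does not show how the unblocked fit performs here. Library set and its interaction with genotype were fitted in further edgeR models.

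The 9 genes and all lists were chosen with earlier results of these data known. Named genes are the 9, Atf4, Asns, the 3 nearest profiles of members with a mean of at least 10 CPM, and of each further list up to 4 called genes of lowest p with at least 1 CPM in the higher group; Foxp3, Csf1r and genes given without a call were added for their role. Acp3 and Adss1 stand under their older symbols, Acpp and Adssl1. Where libraries of a group are not separate mice, p-values measure the spread between libraries, which may be technical. Limits for a count of 0 are 3 counts and cover counting error only. Deviations of same-numbered libraries from their group means correlated at 0.22, 0.20, 0.29 and 0.23, and those of differently numbered libraries of the same set correlated as closely, at 0.21, 0.16, 0.23 and 0.25, while those across sets were negative. The correlations thus follow the library set and do not show pairing by number within a set. A fit with the replicate number as a block and one with the library set as a block were run beside the unblocked one. Alternatives were DESeq2 1.42.0, limma-voom (limma 3.58.1), RLE scaling, no filter or a stricter filter (1 CPM in 4 libraries), both blocks, each library set alone, each library left out, and omission of the 4 libraries with few low counts. Promoter windows came from the RefSeq table (GRCm38.p6), and gene positions and exon lengths from GENCODE M21.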

Additional observations from a re-analysis of the deposited data

Results flagged for a closer look

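Of 54 groups of 4 libraries examined for a library far from the others, 2 were found, where chance gives about 1 in 20. Slc29a1 was at 37.8 CPM in WT replicate 3, and the other WT libraries held 31.1, 31.8 and 32.1 CPM. Entpd6 was at 42.9 CPM in ATF4 overexpression replicate 4, and the other ATF4 overexpression libraries held 46.7, 46.9 and 47.4 CPM.

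The genotype difference of Nadk2 differed between the library sets. It was 1.54 on the log2 scale within replicates 3 and 4 and 0.40 within replicates 1 and 2, and the interaction was 1.18 (edgeR, adjusted p = 0.0073).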

How the results depend on the processing

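Over all genes 2337 were called between the genotypes. The replicate block called 4516 (2279 higher and 2237 lower, against 1524 and 813 without it), the library set as a block 4254, and replicates 3 and 4 alone 3799. With 1 library left out the count ran from 1607 to 2088. Of the 9 genes, 5 were called, 3 within replicates 1 and 2 alone (without Cd38 and Slc28a2), 3 without the libraries with few low counts (without Entpd1 and Cd38), and 4 to 5 with 1 library left out. The replicate block changed no call among the 9 genes, and none of them changed direction where it was called. Among the other purine genes 6 were higher, against 13 with DESeq2, 11 with the replicate block, 13 with the library set as a block, 2 within replicates 1 and 2, 16 within replicates 3 and 4, and 5 to 9 with 1 library left out. Lower ones numbered 9, against 3 without the libraries with few low counts and 6 to 8 with 1 library left out. The causes were not tested. Fits within a library set, and the fit without the libraries with few low counts, rest on 2 libraries a group. The latter is also unbalanced for library set, since only its WT group holds a library of replicates 1 and 2. Adora2b had at most 52 counts in a library, too few for a fit.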
